A study of Caenorhabditis elegans with 32 samples.

Results

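The X chromosome of *C. elegans* was examined here as 35439 windows of 500 bp, every window that the deposited tables place on X, out of 200579 windows in all. These windows span 17.7 Mb of the ce10 assembly and make up 17.7% of the nuclear windows, against 165112 autosomal windows. X was divided at 6.137 and 12.480 Mb into a left arm (12275 windows), a centre (12686 windows) and a right arm (10478 windows). A mean input of at least 10 scaled reads, the minimum for a test, was met by 34946 X windows in the H3K27ac libraries and by 35149 in the H3K9me2 libraries. No read was counted in any of the 32 libraries for 129 X windows, and 110 of those lie in the left arm.

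The study compared chromatin of whole early embryos, collected before the bean stage, by ChIP-seq. H3K27ac was measured in wild-type N2 worms (WT), in the deletion strain met-2(n4256) III (met-2Δ), in the catalytically deficient strain met-2(gw1660) III (met-2-CD), all kept at 20 °C, and in WT worms exposed to 37 °C (HS), with 3 immunoprecipitated (IP) and 3 input libraries each. H3K9me2 was measured in WT embryos alone, at 20 °C and after 1 h at 37 °C, with 2 IP and 2 input libraries each. The labels name the same exposure of 1 h for the H3K27ac samples, but a shorter exposure is also described for them. Both met-2 strains carry their allele in every cell, and heat was applied only to WT worms. In whole embryos, a lower level of a mark and fewer cells that carry it cannot be told apart.

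*C. elegans* hermaphrodites carry a pair of X chromosomes and males carry one. In hermaphrodite embryos a condensin-containing dosage compensation complex binds along both X chromosomes and lowers their transcription. The state of histone H4 lysine 20 methylation also sets X apart from the autosomes. H3K27ac marks active promoters and enhancers. H3K9me2 marks silent chromatin, which on the autosomes is concentrated on the chromosome arms and is sparser on X, and MET-2, a homolog of SETDB1, deposits it.

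The IP libraries of H3K27ac held 19327992 to 36470940 counted reads and their inputs 16899918 to 65133682, while the H3K9me2 libraries ranged from 9928436 to 89301222. As a check of the labels, 2 adjacent windows on chromosome III, where the label places met-2, held no input read in any met-2Δ library (III, 8376567 to 8377566), and 4 windows on V held none in any met-2-CD library, with at least 50 scaled reads in each other group. No X window was missing in this way. The H3K9me2 libraries were less uniform. Mitochondrial reads took 32.8% and 4.44% of the 20 °C inputs and 32.0% and 45.0% of the 37 °C inputs, and on X the 20 °C IP replicates differed with 17.9 times the variance that counting alone gives, against 2.05 times at 37 °C. The lowest mitochondrial share belongs to the input of replicate 2 and the highest IP level in X domains to replicate 1 at 20 °C, so H3K9me2 values in domains are given by replicate and without single libraries.

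X held a smaller share of the H3K27ac reads after heat. In WT the X share of nuclear IP reads was 17.4%, 16.7% and 17.1% (mean 17.1% ± 0.329, SD, n = 3). In HS it was 15.5%, 15.5% and 15.8% (mean 15.6%). All 3 HS libraries lay below all 3 WT libraries, a difference of -1.47 percentage points (exact permutation test, two-sided, p = 0.1, the smallest that 3 against 3 can give). The mutants did not separate from WT: met-2Δ gave 17.4%, 16.5% and 17.2%, and met-2-CD 17.3%, 16.9% and 16.9%, with differences of -0.011 and -0.0060 points (exact permutation test, p = 1 for both). Input DNA shifted in the same direction with heat, but less. The X share of input reads was 18.0% in every WT library and between 17.7% and 17.8% in HS, a difference of -0.23 points (exact permutation test, p = 0.1).

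**Figure D1:**
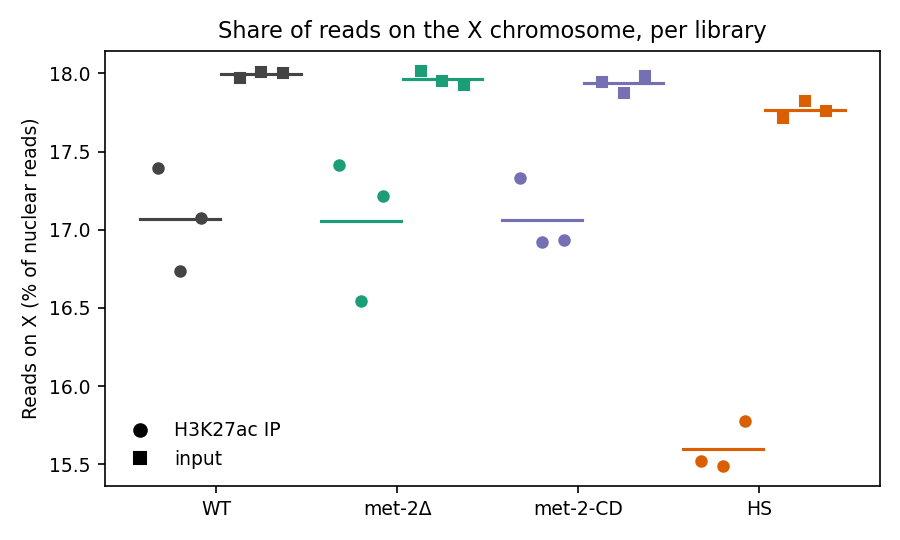
Share of nuclear reads on X in each H3K27ac IP library (circles) and input library (squares), in percent, for WT, met-2Δ, met-2-CD and HS, with lines at group means of 3 libraries; the axis does not start at 0. The HS IP libraries, at 15.5% to 15.8%, lie below the 9 others, whose lowest is 16.5%.

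Among the chromosomes, X and V lost share and I and III gained it. The mean IP share moved with heat by -1.47 points on X and -1.08 points on V, and by 1.23 points on I and 1.24 points on III. Chromosome II gained 0.21 points. On chromosome IV the HS and WT libraries overlapped, with a difference of -0.13 points.

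Enrichment of a window was log2 of its IP reads over its input reads, with 2 added to each after all libraries had been brought to one size by their totals, and was averaged over windows. X was less enriched in H3K27ac than the autosomes in every pair of IP and input libraries. The difference between X and the autosomes was -0.029, -0.088 and -0.063 in WT, -0.045, -0.10 and -0.053 in the deletion strain, -0.041, -0.068 and -0.058 in met-2-CD, and -0.17, -0.17 and -0.15 in HS. Over the 12 pairs its mean was -0.086 (exact sign permutation test, two-sided, p = 0.000488, below 0 in 12 of 12). A lower level was not particular to X, since chromosome V lay further below the other autosomes, by a mean of -0.24, also in 12 of 12 pairs (exact permutation test, p = 0.000488).

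Heat widened the gap between X and the autosomes and the met-2 alleles did not. HS against WT moved the difference by -0.10, with no overlap between the groups (exact permutation test, p = 0.1). The change was -0.0078 in met-2Δ (exact permutation test, p = 0.8) and 0.0041 in met-2-CD (exact permutation test, p = 0.9), both smaller than the SD of WT, and the sign of both turned under other settings. The distance of V from the other autosomes also widened with heat, by -0.14 (exact permutation test, p = 0.1).

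To see where on X the difference arose, H3K27ac regions were set apart from the rest of the chromosome. A region is a run of adjacent windows whose log2 enrichment reached 1 in 2 or more of the 12 pairs. Of 5216 regions in the nuclear genome, 755 lie on X: 302 in the left arm, 243 in the centre and 210 in the right arm. X thus carries 42.6 regions per Mb against 54.0 on the autosomes, and regions cover 7.95% of X windows against 10.8% of autosomal windows. Chromosome V was sparser still, with 35.5 regions per Mb and 6.63% of its windows in regions. Their median width was 1500 bp on X as on the autosomes. The mean WT enrichment inside them was 1.14 on X and 1.11 on the autosomes.

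Inside regions the difference between X and the autosomes was 0.10, -0.042 and 0.0035 in WT and -0.12, -0.11 and -0.098 in HS, and the 2 groups did not overlap (change -0.13, exact permutation test, p = 0.1). Over all 12 pairs it averaged -0.017 (exact sign permutation test, p = 0.416). The H3K27ac level inside regions rose less with heat on X than on any autosome. Its mean change against WT was 0.19 on X, where HS and WT overlapped (exact permutation test, p = 0.2), and between 0.28 on II and 0.34 on III over the 5 autosomes. Here X went further than V, whose distance from the other autosomes inside regions changed by -0.037 (exact permutation test, p = 0.1). Since regions were chosen partly on the HS libraries, the same was computed for regions defined in WT alone, where X changed by 0.076 and the autosomes by 0.18, and their difference by -0.11 (exact permutation test, p = 0.1). Inside the WT regions X minus the autosomes was 0.0071, -0.11 and -0.066 in WT and averaged -0.077 over the 12 pairs (exact sign permutation test, p = 0.00244), so whether X lay below the autosomes inside regions before heat depended on how regions were drawn.

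With libraries scaled by their totals, X and V fell by similar amounts outside regions. The mean change of enrichment with heat was -0.22 on X and -0.23 on V. It was -0.18 on IV and -0.13 on II, both without overlap, and -0.058 on I and -0.052 on III, where the groups overlapped. The distance of X from the autosomes outside regions changed by -0.082 (exact permutation test, p = 0.1, no overlap). The size of a fall depends on the scaling. Over all windows tested, the median log2FC was -0.27 on X and -0.16 on the autosomes with library totals. With edgeR's TMM normalization it was -0.12 and -0.0069.

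The centre of X showed the change most. Inside regions the centre minus the autosomes was 0.17, 0.0097 and 0.049 in WT, and -0.17, -0.20 and -0.13 in HS, a change of -0.24. The left arm changed by -0.080, without overlap. The right arm changed by -0.060 with overlap between HS and WT (exact permutation test, p = 0.4). The centre minus the arms was positive inside regions in each of the 9 pairs at 20 °C and negative in each HS pair. In WT it was 0.11, 0.080 and 0.069 and in HS -0.079, -0.13 and -0.048, a change of -0.17 (exact permutation test, p = 0.1). With regions from WT alone the centre and arms of WT differed by -0.0062, -0.0014 and -0.038, so the centre was then not above the arms in WT, and the change with heat was -0.11, again without overlap. Outside regions the change was -0.093. In shares of nuclear reads, the centre held 6.25% to 6.54% of IP reads in WT and 5.42% to 5.70% in HS, and 6.63% to 6.65% of input reads in WT and 6.52% to 6.56% in HS.

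**Figure D2:**
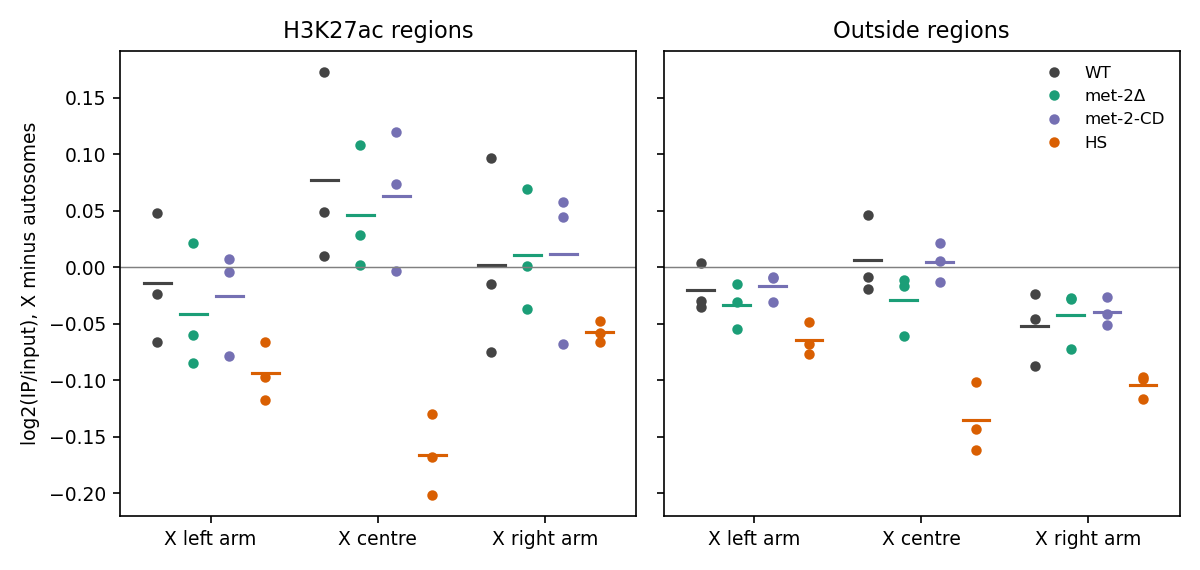
Mean log2 of IP over input on each segment of X minus the autosomes, inside H3K27ac regions (left) and outside them (right), one point per pair of IP and input libraries and a line at the mean of 3 pairs. In HS the X centre lies at -0.13 to -0.20 inside regions, below every other pair.

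Regions were then tested one by one. Of all 5216 regions, 21.5% were higher and 0.556% lower in HS than in WT (edgeR quasi-likelihood test, adjusted p under 0.01). On X 67 of 755 regions (8.87%) were higher and 5 (0.662%) lower, while on the autosomes 1057 of 4461 (23.7%) were higher and 24 lower. Among single autosomes the share called higher ran from 17.4% on V to 27.6% on III. In the X centre 3 of 243 regions were higher and 3 lower, in the left arm 34 of 302 were higher and 2 lower, and in the right arm 30 of 210 were higher and none lower. The median log2FC of regions was 0.18 on X, with 0.24 in the left arm, 0.085 in the centre and 0.27 in the right arm, against 0.33 on the autosomes.

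How many X regions were called, and in which direction, depended on the scaling. Library totals place the median of all regions at 0.31, whereas edgeR's TMM normalization places it at -0.013. With TMM, 48 X regions were higher and 184 lower, and with DESeq2 55 were higher and 197 lower. A change of library sizes shifts the fold changes of all regions by nearly one amount, so the distance between X and the autosomes is nearly fixed whatever the scaling: the median of X minus that of the autosomes was -0.15 with library totals, -0.15 with TMM and -0.15 with DESeq2. For the X centre it was -0.25, -0.24 and -0.24. With regions defined in WT alone, 17 of 568 X regions were higher and 1 lower, 0 of them higher in the centre, and 308 of 3383 autosomal regions were higher. Of the 67 X regions called higher, 38 held no window that was a region in WT alone, as did 230 of all 755. HS and WT libraries did not overlap at 37.4% of X regions, 236 higher and 46 lower in HS, against 56.3% of all regions. Leaving out 1 WT or HS library gave 34 to 86 higher and 1 to 3 lower X regions, and 2 to 9 higher in the centre. The count of higher regions fell by over 1.5 times without WT replicate 2 (37), WT replicate 3 (34) or HS replicate 2 (37), and it rose to 124, with 10 lower, without met-2-CD replicate 3, which enters only the common estimate of the spread.

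**Figure D3:**
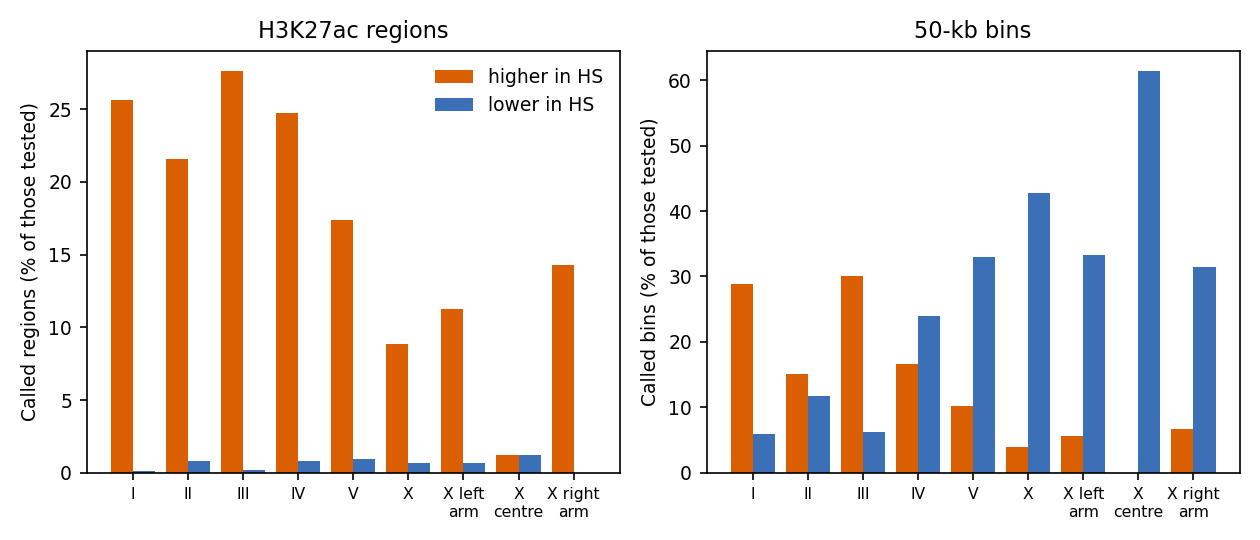
Percent of H3K27ac regions (left) and of 50-kb bins (right) called higher (orange) or lower (blue) in HS than in WT by edgeR at an adjusted p under 0.01, for each chromosome and each segment of X. On X 8.87% of regions were higher against 17.4% to 27.6% on single autosomes, and 42.8% of X bins were lower.

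The X region with the lowest p among those gained with heat lies in the left arm (X, 443736 to 444735, ce10). It gave 150, 67.9 and 100.4 scaled IP reads in WT and 265, 376 and 270.2 in HS, while input reads were 138 to 160 in WT and 117 to 130.3 in HS. All HS values lay above all WT values (log2FC 1.51 ± 0.21, SE, edgeR adjusted p = 9.28e-11). Its mean enrichment in WT was -0.46. No window of it reached a log2 of 1 outside the HS pairs, so it became a region through the HS libraries alone and its rise is not independent of that choice. The next region, also in the left arm (X, 2056229 to 2059728, 3500 bp), rose from 545, 634 and 649 reads in WT to 1522, 1683.8 and 1283 in HS (log2FC 1.30 ± 0.18, SE, edgeR adjusted p = 2.07e-10). In met-2Δ it held 553, 563 and 603 reads and in met-2-CD 544, 619 and 623, within or near the WT range. The last of the 3 lies in the right arm (X, 13794678 to 13795677) and rose from 292, 328 and 262 reads to 738, 635 and 733 (log2FC 1.26 ± 0.18, SE, edgeR adjusted p = 6.92e-10). With TMM the log2FC of the 3 was 1.19, 0.96 and 0.94. These 3 regions stayed past the threshold whichever WT or HS library was left out, but the regions were not redrawn for these fits. In the second region 1 of 7 windows lay in a region from WT alone, and in the third 1 of 2. The stability of the calls is thus not independent of how the regions were drawn and picked.

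With library totals the losses were fewer and smaller than the gains, whereas with TMM they were more numerous and the 3 named here had log2FC values of -1.14, -0.97 and -0.94. The lost X region with the lowest p lies in the centre (X, 12230185 to 12231684) and fell from 931, 1037 and 919 reads in WT to 528, 510 and 597 in HS, against inputs of 390 to 452 in WT and 364 to 502 in HS (log2FC -0.82 ± 0.18, SE, edgeR adjusted p = 0.000115). It was called in 6 of 6 fits that left out a library. In the left arm, a region at X 5164715 to 5165714 went from 882, 707 and 759 reads to 452, 524 and 520 (log2FC -0.65 ± 0.18, SE, edgeR adjusted p = 0.00226), a call kept in 3 of 6 such fits. Another at X 5640713 to 5642712 went from 1719, 1703 and 1542 reads to 1030, 1127 and 1069 (log2FC -0.62 ± 0.19, SE, edgeR adjusted p = 0.00508), a call kept in none of them. The mean WT enrichment of the 3 was 1.19, 1.30 and 1.49. Of their windows, 2 of 3, 2 of 2 and 3 of 4 lay in regions from WT alone. Regions were drawn partly on the WT libraries and these were picked by their p, so their fall is not independent of that choice. With totals outside the regions as library sizes none of the 755 X regions was called lower and 64 were higher, and the adjusted p of these 3 rose to 0.0126, 0.0537 and 0.0854, whereas with TMM it was 1.5e-07, 2.36e-07 and 5.61e-09.

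The most enriched and the widest region of X are given next. The region most enriched in WT, at a mean log2 of 1.86 (right arm, X, 17029665 to 17031164), held 1398, 1104 and 1032 reads in WT and 1134, 1379 and 1228 in HS (log2FC 0.082 ± 0.18, SE, edgeR adjusted p = 0.754). The widest, 14500 bp in the centre (X, 12170685 to 12185184), held 12756, 10035 and 9975 reads in WT and 10723, 13077 and 10694 in HS (log2FC 0.074 ± 0.19, SE, edgeR adjusted p = 0.789). In both, the HS libraries overlapped those of WT. With TMM both fold changes turned, to -0.24 (edgeR adjusted p = 0.0286) and to -0.25 (edgeR adjusted p = 0.0052), so that the widest was then called lower.

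In the mutants almost no X region was called. Of all regions, 0.824% were higher and 0.0959% lower in met-2Δ, and of the 755 on X 1 was higher and 0 lower, with 62 at an unadjusted p under 0.05 and 8 higher and 2 lower by DESeq2. That region is a single window in the right arm (X, 15923169 to 15923668). It reached a log2 of 1 in the HS pairs alone, so its rise in HS is not independent of that choice. It gave 148, 116 and 104 reads in WT, 219, 215 and 215 in the deletion strain, 191, 139.8 and 207 in met-2-CD and 260.2, 314 and 277 in HS. The met-2Δ and HS libraries lay above the WT range and met-2-CD overlapped it. Its log2FC was 0.82 ± 0.21 in met-2Δ (SE, edgeR adjusted p = 0.00724), kept in 1 of 6 fits that left out a library and not with the replicate number as a block (adjusted p = 0.0123), 0.56 ± 0.21 in met-2-CD (SE, adjusted p = 0.519) and 1.21 ± 0.21 in HS (SE, adjusted p = 1.42e-07). For met-2-CD, 0.134% of all regions were higher and 0.0383% lower, and edgeR called no X region, with 3 at an unadjusted p under 0.05, while DESeq2 called 1. No X region was called in all 3 contrasts. The median log2FC of X regions was -0.18 in met-2Δ, as on the autosomes, and 0.0030 in met-2-CD. With TMM the medians of X were -0.0041 and -0.0036.

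A difference between the X segments did separate met-2Δ from WT, but many such differences were computed without correction for their number. The separation alone therefore does not establish a change. The centre minus the arms, over all windows, was 0.0070, -0.00045 and 0.012 in met-2Δ against 0.050, 0.036 and 0.024 in WT, a change of -0.031 without overlap (exact permutation test, p = 0.1). Outside regions the change was -0.033 and inside them -0.018, both without overlap, while inside regions defined in WT alone met-2Δ and WT overlapped (change 0.0063, exact permutation test, p = 0.9). In met-2-CD the values overlapped those of WT (change -0.0095, exact permutation test, p = 0.5).

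Broad shifts were followed in bins of 50 kb. Of 2008 bins, 16.5% were higher and 22.2% lower in HS (edgeR, adjusted p under 0.01). On X 14 of 355 bins were higher and 152 (42.8%) lower, while on the autosomes 317 of 1653 were higher (19.2%) and 293 lower (17.7%). In the X centre none of 127 bins was higher and 78 (61.4%) were lower. The left arm had 41 of 123 lower and 7 higher, and the right arm 33 of 105 lower and 7 higher. On V 138 of 419 bins (32.9%) were lower and 43 higher. The median log2FC was -0.21 in the X centre, -0.13 in the left arm, -0.11 in the right arm, -0.16 on V and -0.016 over the autosomes.

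**Figure D4:**
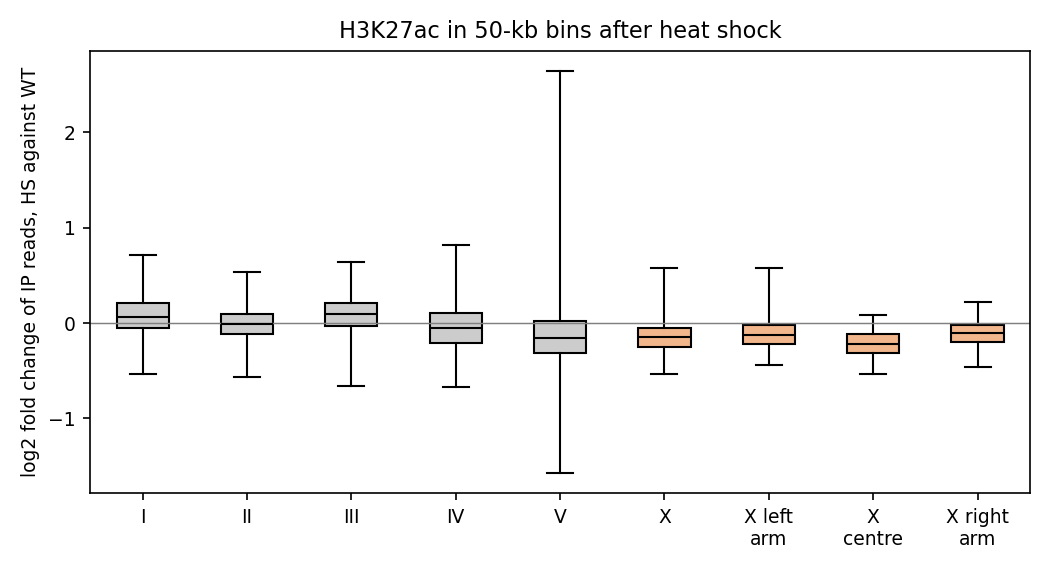
Log2FC of H3K27ac IP reads in 50-kb bins, HS against WT, by chromosome and by segment of X; boxes span the quartiles with a line at the median, and whiskers reach the lowest and highest bin. The median of the X centre is -0.21, against -0.016 over all autosomes.

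X and the autosomes were then set side by side in bins of like region content. Among bins without any region window, 31 of 52 on X were lower (59.6%, median log2FC -0.31) and 95 of 208 on the autosomes (45.7%, median -0.32). Among bins with more than 10 region windows, 10 of 101 on X were higher and 14 lower (median -0.040), whereas on the autosomes 257 of 712 (36.1%) were higher and 28 lower (median 0.12). On V, such bins had a median of 0.10 with 31 of 95 higher. In the X centre none of the 31 such bins was higher and 8 were lower (median -0.12). Among bins with 1 to 10 region windows the median was -0.17 on X (4 of 202 higher, 107 lower), -0.16 on V and -0.078 on the autosomes. Regions were drawn partly on the HS libraries, so the bins were also split by regions from WT alone, a split added after the data had been seen. The medians of X and of the autosomes were then -0.29 and -0.26 in bins without such a window, -0.13 and -0.0029 with 1 to 10 of them, and -0.054 and 0.10 with more than 10.

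Reads outside the regions alone were also used as library sizes, a choice made after the data had been seen. It left 20 X bins higher and 61 lower, 40 of these in the centre, and 384 autosomal bins higher and 173 lower. Input libraries entered as an interaction gave 12 higher and 90 lower X bins. Leaving out 1 WT or HS library gave 94 to 136 lower X bins, with 94 without WT replicate 3, and between 58 and 73 in the centre.

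The bin that rose most is close to the left end of X (X, 150237 to 200236). It held 8208, 9107 and 8497 reads in WT and 12663, 13731 and 12061 in HS, with inputs of 8357 to 8953 and 8058 to 8558 (log2FC 0.58 ± 0.077, SE, edgeR adjusted p = 5.23e-06). The bin that fell most lies in the centre (X, 10250194 to 10300192) and went from 9969, 10386 and 10737 reads to 7287, 6254 and 7869, with inputs of 13242 to 13551 in WT and 12687 to 13295 in HS (log2FC -0.54 ± 0.098, SE, edgeR adjusted p = 0.000155). In both bins the HS libraries lay outside the WT range. The longest run of neighbouring bins called lower counted 8 and lies in the left arm (X, 450236 to 850233).

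In the mutants no X bin was called by edgeR: 32 of 355 had an unadjusted p under 0.05 for met-2Δ and 0 for met-2-CD. Of all bins, 0.0498% were lower and 0% higher for met-2Δ, and 0% for met-2-CD. The median log2FC of X bins was -0.0026 for either strain.

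At the level of single windows, 4.2% of the 196112 windows tested were higher and 3.28% lower in HS. On X 555 of 34946 were higher (1.59%) and 1675 lower (4.79%), and on the autosomes 7673 of 161166 were higher (4.76%) and 4756 lower (2.95%). Of the X windows tested, 32129 lay outside regions, and regions were drawn partly on the HS libraries, so the place of the calls is a description. Outside regions lay 1663 of the 1675 lower and 310 of the 555 higher windows. Inside regions 8.70% of X windows were higher against 19.1% on the autosomes. The centre held 881 of the lower windows and 74 of the higher ones. With TMM 887 X windows were higher and 646 lower, so the majority turned. Leaving out 1 library lowered the number of X windows called by over 1.5 times for WT replicate 2 (1198), WT replicate 3 (972) and HS replicate 2 (778). The median of X minus that of the autosomes was -0.11 under either scaling. In met-2Δ, where 0.145% of all windows were higher and 0.028% lower, 5 X windows were higher and 2 lower, or 9 and 2 with the replicate number as a block, and 0 to 3 lower and 2 to 6 higher when a library was left out. In met-2-CD, where 0.0133% were higher and 0.0051% lower, edgeR called none of the X windows, with 1091 at an unadjusted p under 0.05.

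H3K9me2 was sparse on X. Domains, runs of 3 or more windows in which enrichment at 20 °C averaged a log2 of 1 or more, numbered 3643 in all and 329 on X (9.03%). They covered 4.09% of X windows against 10.5% of autosomal windows and between 7.65% on IV and 14.5% on III. The left arm held 162 of them, the centre 62 and the right arm 105, which covered 5.96%, 2.15% and 4.25% of their windows. Their median width was 1500 bp on X and 2000 bp on the autosomes. Windows that were both in a domain and in an H3K27ac region numbered 169 on X, which is 11.7% of X domain windows and 6.0% of X region windows. On the autosomes they were 12.3% of domain windows and 11.9% of region windows.

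The mean H3K9me2 enrichment at 20 °C was lower in the X centre than in the X arms or on any autosome, in both replicates. It was -0.72 and -0.44 there, -0.26 and -0.19 in the left arm, -0.42 and -0.35 in the right arm and -0.29 and -0.084 on the autosomes, for replicates 1 and 2. Both replicates give the same order of the segments. At 37 °C the 3 segments lay close together, at 0.51 and 1.09 in the centre, 0.56 and 1.05 in the left arm and 0.48 and 0.97 in the right arm. These levels are relative to input libraries in which mitochondrial reads took the shares given above, and their part in the rise was not tested, whereas differences between X and the autosomes depend little on the scaling of a library. X minus the autosomes was -0.18 and -0.24 at 20 °C and -0.068 and 0.0037 after heat, a change of 0.18 (exact permutation test, p = 0.333, the smallest that 2 against 2 can give). The centre minus the arms was -0.39 and -0.18 at 20 °C and -0.013 and 0.074 after heat. The X share of H3K9me2 IP reads was 13.0% and 14.5% at 20 °C and 15.9% and 15.8% at 37 °C, with input shares of 16.0% and 17.9%, and of 16.6% and 15.5%. Neither the IP shares nor the differences from the autosomes over all windows overlapped between temperatures. Split by domains, the change of X minus the autosomes was smaller. It was 0.027 inside H3K9me2 domains and 0.097 outside them (exact permutation test, p = 0.667). The part of domain coverage, which differs between X and the autosomes, in the change over all windows was not tested.

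In X domains the scaled H3K9me2 IP reads per window were 567 and 309 at 20 °C and 258 and 262 at 37 °C. All values at 37 °C were lower, at 59.4% ± 24.7 (SD from both groups, n = 2 against 2) of the 20 °C level (exact permutation test, p = 0.333). The autosomal domains were at 56.3% of 20 °C. The reduction on X rested on replicate 1 at 20 °C: within replicate numbers the level was 45.5% and 84.9%, without that replicate it was 84.1%, and with domains taken from replicate 1 and their level from replicate 2 it was 99.9%. With domains taken from replicate 2 and their 20 °C level from replicate 1, the level on X was 47.6%. Domains were chosen on the 20 °C libraries, so the level there is not independent of that choice. Against input, the enrichment in X domains was 2.22 and 0.94 at 20 °C and 1.19 and 1.58 after heat, so the temperatures overlapped with these totals. The totals include mitochondrial reads, which took 32.8% and 4.44% of the 20 °C inputs and 32.0% and 45.0% of the 37 °C inputs. They took 0.073% to 0.99% of the IP reads. Nuclear totals would lower a value more where the input share is larger. That is least for replicate 2 at 20 °C, the lowest value, and most for replicate 2 at 37 °C. The overlap thus depends on these totals and is not a result about X domains. Enrichment with nuclear totals was not computed. Outside domains X went the other way, from 121 and 148 reads to 165 and 163. So did the autosomes outside domains, from 133 and 165 reads to 175 and 174. Libraries were scaled to one total, so fewer reads in domains leave more elsewhere. The ratio of reads inside to outside X domains was 4.69 and 2.09 at 20 °C and 1.56 and 1.61 at 37 °C, against 5.86, 2.73, 1.96 and 2.01 on the autosomes, so the ratio was lower on X than on the autosomes in each of the 4 libraries.

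**Figure D5:**
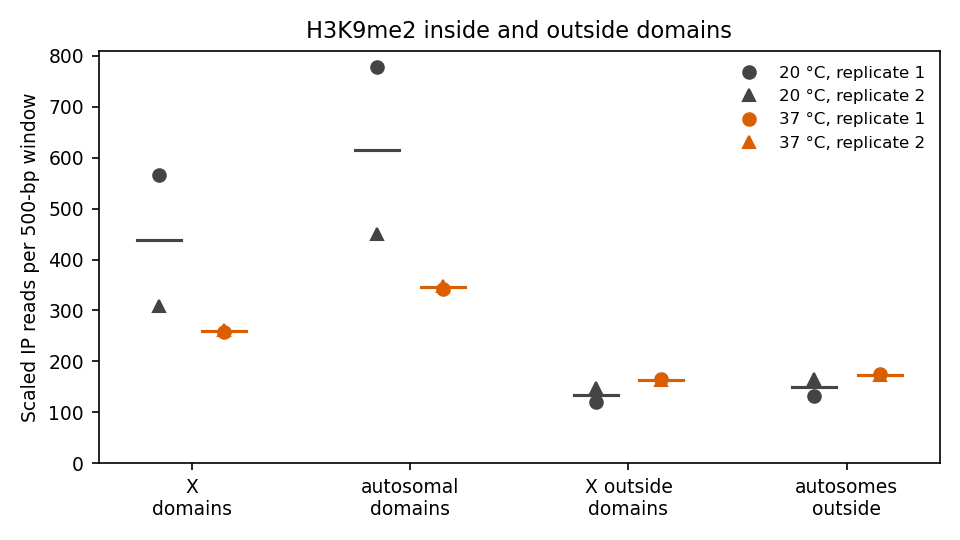
Scaled H3K9me2 IP reads per 500-bp window inside and outside H3K9me2 domains on X and on the autosomes, at 20 °C (grey) and 37 °C (orange), replicate 1 as circles and replicate 2 as triangles, with lines at the mean of 2. In X domains the 20 °C replicates lie at 567 and 309 and the 37 °C replicates at 258 and 262.

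No X domain was called between 37 °C and 20 °C by edgeR, where 0% of all domains were higher and 0.0549% lower. A total of 24 X domains had an unadjusted p under 0.05, and DESeq2 called 2 higher and 13 lower. The median log2FC was -0.70 on X and -0.70 on the autosomes with library totals, and 0.036 and 0.0047 with TMM. It was -0.057 and -0.19 without 20 °C replicate 1, and -1.14 and -1.08 without 20 °C replicate 2. Fits on 3 libraries, which assume that the lone library varies like the other group, called 318 X domains without 20 °C replicate 2, 40 without 20 °C replicate 1 and 0 without either 37 °C replicate. No X bin of 50 kb was called for H3K9me2 either, with 10 of 355 at an unadjusted p under 0.05 and 0% called of all bins. Their median log2FC was 0.26 on X and 0.16 on the autosomes with library totals, and 0.065 and -0.028 with TMM.

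The longest domain of X lies in the right arm (X, 16827165 to 16838664, 11500 bp) and went from 12489 and 5126 reads to 4603 and 4802 at 37 °C (log2FC -0.91 ± 0.44, SE, edgeR adjusted p = 0.342). The longest of the centre (X, 9190698 to 9200197, 9500 bp) went from 12224 and 4965 reads to 4809 and 4846 (log2FC -0.83 ± 0.44, SE, edgeR adjusted p = 0.342). The longest of the left arm (X, 1548731 to 1557730, 9000 bp) went from 12776 and 5844 reads to 5303 and 5296 (log2FC -0.81 ± 0.43, SE, edgeR adjusted p = 0.342). In all 3 the values at 37 °C lay just below replicate 2 at 20 °C and far below replicate 1. Without 20 °C replicate 1 their log2FC was -0.12, -0.041 and -0.14, and without 20 °C replicate 2 it was -1.41, -1.34 and -1.27. The X domain with the highest mean enrichment at 20 °C, 2.52 (left arm, X, 289236 to 291735, 2500 bp), behaved differently, since both 20 °C replicates were high: 839 and 922 reads against 281 and 185 at 37 °C (log2FC -1.91 ± 0.55, SE, edgeR adjusted p = 0.155). Its inputs were 314 and 70.2 at 20 °C, against 259 and 355 after heat, and DESeq2 called it (adjusted p = 0.00867). The enrichment of this domain was 1.48 and 3.55 in the 20 °C replicates. It was picked for that enrichment, so its high 20 °C values and its fall are not independent of the choice.

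H3K27ac was also read inside the X domains of H3K9me2, which come from the other experiment. The mean log2 enrichment of H3K27ac in X domains was -0.29, -0.28 and -0.25 in WT and -0.18, 0.026 and -0.21 in HS, a change of 0.15 without overlap (exact permutation test, p = 0.1). HS replicate 2 lies above both other HS pairs, and without it the change was 0.076. Over all X windows the change was -0.19. The median log2FC of the X windows tested inside domains was 0.061, and 0.012 for those outside H3K27ac regions. On the autosomes the change inside domains was 0.16, or 0.091 without HS replicate 2, and X minus autosomes inside domains changed by -0.013 (exact permutation test, p = 0.6). Of the 1426 X windows tested inside domains, 117 (8.20%) were higher and 6 (0.42%) lower in HS. On the autosomes 13.2% of domain windows were higher and 0.35% lower, and 9.79% and 0.39% of those outside H3K27ac regions. Leaving out X windows in H3K27ac regions, 56 of 1257 (4.46%) were higher and 6 lower. Of all 32129 X windows outside regions, 310 were higher (0.96%) and 1663 lower (5.18%). Among the mutants, the level in X domains was -0.19 on average for met-2Δ, 0.081 above WT with overlap (exact permutation test, p = 0.2), and -0.25 for met-2-CD, 0.025 above WT (exact permutation test, p = 1).

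Across the 355 X bins, the H3K27ac log2FC of HS against WT was higher where H3K9me2 enrichment at 20 °C was higher (Pearson r = 0.50, Spearman rho = 0.51). On single autosomes r ran from 0.15 on III to 0.51 on IV. The WT level of H3K27ac itself showed little relation with H3K9me2 on X (Pearson r = -0.017, Spearman rho = 0.074). Neighbouring bins share their chromatin and all bins share the same libraries, so these values only describe the chromosome.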

How the data were processed

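H3K27ac ChIP-seq (12 IP and 12 input libraries) and H3K9me2 ChIP-seq (4 and 4) of early embryos were used. The authors aligned paired ends to ce10 with bowtie through QuasR, kept unique alignments and deposited raw read counts per 500-bp window. All 32 totals are even, so both mates appear to be counted, and counting errors cover reads, not molecules.

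Libraries were scaled by their totals, IP was matched to input by group and replicate number, and a pseudocount of 2 was used. Features (windows, regions, 50-kb bins, domains) were tested genome-wide with edgeR 4.0.16 (quasi-likelihood, library totals, Benjamini-Hochberg, adjusted p under 0.01) in R 4.3.3, one fit per mark, and single values with exact permutation tests in scipy. The script was tested on simulated data. The labels call the replicates independent biological replicates. HS IP replicates 1 and 3 differed per X window by 0.979 times counting variance, yet their X shares (15.5% and 15.8%) differed by more than counting error, and they were kept as 2 samples. The labels do not say that a replicate number is shared between groups. Same-numbered IP libraries of WT and met-2Δ deviated together over regions (correlations 0.28, 0.17 and 0.21), whereas over all 18 pairs of groups the correlations ran from -0.40 to 0.28, so blocked values stand beside the met-2Δ results they change.

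Alternatives were TMM, DESeq2 1.42.0, other filters, region definitions and bin widths, the replicate block and leaving out single libraries. Added after seeing the data were totals outside regions, values inside and outside regions and domains, single autosomes and H3K9me2 bins. Members, lists and tests were chosen with earlier results of these data known. Named positions followed a rule: the 3 gained and 3 lost X regions with the lowest p per contrast whose replicates lie outside the WT range, the most enriched and widest region, the longest domain per X segment and the most enriched domain, and the bins of largest rise and fall. Windows carry no gene names and no genome of this build was used, so positions stand without genes or sequence.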

Additional observations from a re-analysis of the deposited data

How the results depend on the processing

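Of 24 results that answer a comparison, the X minus autosome difference of HS kept its direction under every alternative run. The centre minus arms of HS did so too, but was run only without single libraries and by region split. Other results also kept theirs, among them X bins in HS, with more lower than higher, and the X share of input reads in HS. Counts of calls moved most. X regions called in HS (72) became 232 with TMM and 252 with DESeq2, most of them lower, 28 at an enrichment of 1.5, 18 with regions from WT alone, and 35 to 87 without single libraries. X bins (166) became 687 of 10 kb, 81 with totals outside regions, 102 with the input interaction and 101 to 150 without single libraries. X windows (2230) became 1533 with TMM, where more were higher than lower, and 778 to 2155 without single libraries. The cause was not tested.

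For met-2Δ the number of X regions called, 1, became 6 with TMM, 10 with DESeq2, and 0 with the replicate block, the higher enrichment, WT regions or totals outside regions, and 0 to 1 without single libraries; its windows, 7, became 11 with the replicate block and 2 to 8 without single libraries. For met-2-CD 1 X region was called with TMM and 1 with DESeq2. The X minus autosome difference of met-2Δ turned positive with summed reads (0.0018) and WT regions (0.017) and ran from -0.022 to 0.011 without single libraries. That of met-2-CD was -0.0067 inside regions and ran from -0.0098 to 0.020. Over the 12 pairs X minus autosomes was -0.017 inside regions (exact sign permutation test, p = 0.416) and -0.077 inside regions from WT alone (p = 0.00244), and the centre minus the arms, 0.0012, was -0.039 with WT regions and ran from -0.0033 to 0.011 without single libraries.

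The H3K9me2 level in X domains, 59.4% of 20 °C, was 99.9% with domains from replicate 1 and the level from replicate 2. With domains from replicate 2 and the level from replicate 1 it was 47.6%, and without single libraries 45.9% to 84.1%. X domains called, 0, were 15 with DESeq2 and 0 to 318 without single libraries. With the replicate block 59 X regions (57 higher, 2 lower), 156 X bins and 2075 X windows were called in HS, and apart from the met-2Δ counts above and the 2 named regions X 15923169 and X 5640713 (adjusted p = 0.0123 and 0.0161) no other named feature changed its call. H3K27ac in X domains changed with heat by 0.076 to 0.19 without single libraries. Depth limits what single windows can show, and with 3 or 2 libraries a group the exact tests cannot reach 0.05.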
